A study of Mus musculus with 8 samples.

Results

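The control libraries of 2 RNA-seq experiments on mouse E14 embryonic stem cells were compared with each other. All libraries titled as controls were taken, which gave 4 of the 8 libraries: Ssrp1_Control 1 and 2 and Usp7_Control 1 and 2. E14 is a widely used stem cell line, and the labels give its strain as 12910la. The experiment with the Ssrp1 controls knocked out Ssrp1, a subunit of the histone chaperone FACT, with Cas9 and a guide RNA. The experiment with the Usp7 controls knocked down the deubiquitinase Usp7 with an shRNA. All cells grew on 0.2% gelatin with 15% fetal bovine serum and 10 ng/ml of the cytokine LIF, and both control groups carry the genotype label control. The Ssrp1 controls are described as wild-type cells kept in serum. The Usp7 protocol transfected wild-type cells with 1000 ng of the pSuper puro plasmid and gave 1 ug/ml puromycin for 3 days from 24 h later. Whether the Usp7 controls received an empty plasmid, another hairpin or no plasmid is not stated in the labels. Experiment, handling and group therefore cannot be told apart in any difference between the groups. The labels do not say that replicates were separate cultures, so the p-values measure the spread between these libraries, which may be technical.

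Stem cells in serum and LIF hold a transcription factor network around Pou5f1, Sox2 and Nanog that keeps them pluripotent, and single cells drift between more naive and more primed states. A small fraction of such cells passes through a 2-cell-like state, in which genes of the early cleavage embryo such as the Zscan4 family are switched on by the homeodomain factor Dux. Imprinted genes, which are expressed from a single parental allele, are known to vary between stem cell cultures, and clustered KRAB zinc finger genes encode repressors of transposable elements.

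The control libraries held 16589189 and 16845180 counts (Ssrp1 controls) and 18361130 and 16670869 counts (Usp7 controls), over 22230 to 23702 genes with at least 1 count. Across genes, log-scale levels correlated at 0.976 and 0.978 within the groups and at 0.91 to 0.947 between them (Pearson's r, a description in which each pair shares the annotation and the protocol). Replicates were distinct libraries: their counts gave a mean chi-square of 43.1 per gene in the Ssrp1 controls and 35.6 in the Usp7 controls. Neither target passed the test between the groups: Ssrp1 stood at 389 and 482 against 441 and 379 CPM (counts scaled by the library total; log2 difference -0.25, SE 0.28, adjusted p = 0.61), and Usp7 at 357 and 442 against 357 and 389 CPM (-0.27, SE 0.26, adjusted p = 0.55). Ssrp1 was at 383 and 129 CPM in the libraries labelled Ssrp1 knockout, so the first of them had the level of a control, and Usp7 was at 118 and 134 CPM in the Usp7 knockdown. All 9 stem cell markers had a mean above 1 TPM (a gene's share of the library's transcripts, with counts scaled by exon length), from 135 for Klf4 to 9532 for Dppa5a. Short marker sets of other cell types summed far lower, at 9.34 to 16.8 TPM for 7 feeder fibroblast markers and 1.48 to 6.67 TPM for 7 primitive endoderm markers. The 4 mesoderm markers summed to 1.92 to 10.4 TPM and the 4 neural markers to 3.65 to 6.59 TPM. Lum and Neurog2 were at 0 in every control library. The 5 trophoblast markers summed to 20.7 to 35.4 TPM, almost all of it Tfap2c (27.1 TPM), which germ and stem cells also express. Longer gene lists of these cell types summed higher. Primitive endoderm genes reached 969 and 1000 TPM in the Ssrp1 controls and 1620 and 1620 TPM in the Usp7 controls. Most of these sums was Apoe alone, at 744 and 699 TPM in the Ssrp1 controls and 1278 and 1141 TPM in the Usp7 controls. Apoe did not pass the test between the groups (adjusted p = 0.57), and none of the 23 members tested was called. Fibroblast and feeder genes summed to 454 to 829 TPM and trophoblast genes to 384 to 505 TPM. Neural and ectoderm genes summed to 262 to 299 TPM and mesoderm and primitive streak genes to 79.6 to 126 TPM.

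Among the genes ranked, the machinery of translation led the baseline transcriptome. Mitochondrially encoded and predicted genes were left out of this ranking. Eef1a1, which carries aminoacyl-tRNA to the ribosome, was the highest of the rest in each of the 4 libraries. It stood at 24320 and 22760 TPM in the Ssrp1 controls and 16260 and 19530 TPM in the Usp7 controls. Of the 20 highest genes, leaving out mitochondrially encoded and predicted genes, 12 encode ribosomal proteins, with Rplp1 next to it in mean level (11840 ± 2650 TPM, SD, n = 4). Dppa5a, an RNA-binding protein gene expressed in pluripotent cells, ranked 3 by mean level, at 13810 and 11560 against 6675 and 6079 TPM. Its rank was 3 and 2 in the Ssrp1 controls and 5 in both Usp7 controls. Hsp90ab1, a cytosolic chaperone gene, went the other way in rank, from 22 and 8 in the Ssrp1 controls to 4 and 3 in the Usp7 controls, but its level did not pass the test (4118 and 4836 against 6881 and 7263 TPM; adjusted p = 0.75). The glycolytic enzyme gene Gapdh (4144 ± 390 TPM), the elongation factor gene Eef2 (3703 ± 923 TPM) and Ptma, which encodes prothymosin alpha (6148 ± 161 TPM), were also among the 20. So was the processed pseudogene Ftl2-ps, which ranked 4 by mean level (7964 ± 973 TPM). Whether its counts hold reads of a related gene was not tested. Ranked by counts with no length scaling, 8 of these 20 genes stayed in the top 20, so the order depends on the length scaling.

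Among the stem cell markers, the length-scaled level of Pou5f1 was 1491 and 1380 TPM in the Ssrp1 controls and 1702 and 1437 TPM in the Usp7 controls. This was below Dppa5a. The signalling co-receptor gene Tdgf1 had a lower mean (1183 ± 373 TPM) but overlapped with Pou5f1, and in Ssrp1_Control 2 it was higher (1603 against 1380 TPM). Zfp42 (1087 ± 88.3 TPM) and Utf1 (988 ± 247 TPM) lay within an SD of Tdgf1. Nanog (731 ± 183 TPM) and Sox2 (582 ± 187 TPM) came next and also overlapped, followed by Esrrb (346 ± 56.1 TPM) and Klf4 (135 ± 35.3 TPM). The 2-cell-like markers were low and uneven: Zscan4c stood at 14.0 and 63.8 TPM in the Ssrp1 controls and 1.46 and 1.14 TPM in the Usp7 controls. The sum over 8 such markers was 37.5 and 126 TPM against 3.77 and 5.08 TPM.

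Between the control groups, 2-cell-like genes were lower in the Usp7 controls. Many clustered zinc finger genes on chromosomes 2 and 4, 9 of 32 imprinted genes and 5 of 13 mitochondrially encoded genes were higher. Of 15530 genes tested, 1621 (10.4%) differed at an adjusted p under 0.05 in edgeR's quasi-likelihood test with Benjamini-Hochberg adjustment. Of these, 837 (5.39%) were higher in the Usp7 controls, with a median log2 difference of 1.61, and 784 (5.05%) were lower, with a median of -1.69. Differences are given throughout as Usp7 controls minus Ssrp1 controls on the log2 scale, and the median over all genes tested was 0.01. The CPM of the 2 groups did not overlap for 8865 of the genes tested (57.1%), so that groups without overlap are common here and are given below as a description only. The number called depended on single libraries: it was 874 without Ssrp1_Control 1, 875 without Usp7_Control 2 and 2652 without Ssrp1_Control 2.

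**Figure D1:**
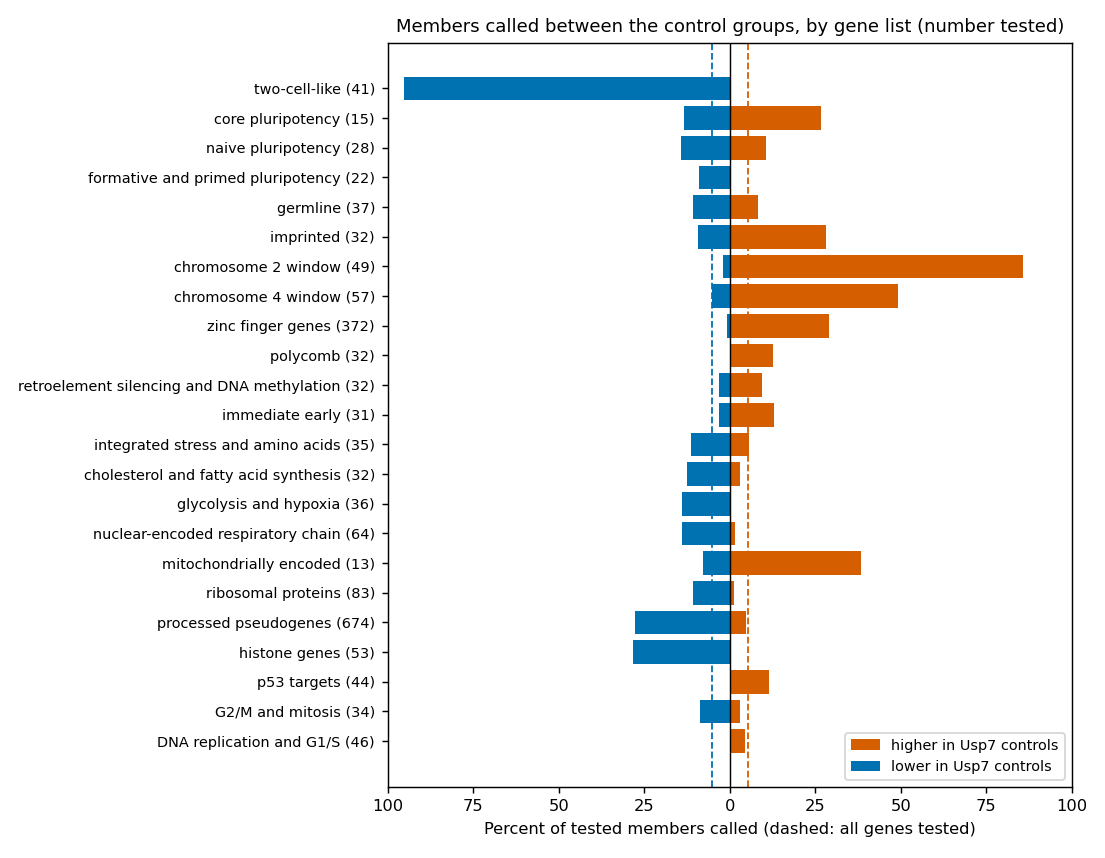
Share of the tested members of each gene list called higher (orange, right) or lower (blue, left) in the Usp7 controls, in percent, with the number tested in parentheses; dashed lines mark the shares over all genes, 5.39% higher and 5.05% lower. The 2-cell-like list reaches 95.1% lower and the chromosome 2 window 85.7% higher.

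The 2-cell-like genes differed most. Of 67 members 41 had enough counts to test, and 39 of these were lower in the Usp7 controls and none higher, against 5.05% lower over all genes. The median log2 difference was -4.84 (-4.64 with the 4 genes that had no count in the Usp7 controls set to their bounds). The filter keeps a rare gene mainly where it is high, so these counts describe the members that passed. The 39 calls became 37 to 41 when any 1 control library was left out, and 39 members were lower after correction for GC content and length.

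Zscan4 genes encode zinc finger proteins with a SCAN domain and are the usual reporters of the state. The summed level of the 9 Zscan4 genes and pseudogenes was 79.1 and 282 CPM in the Ssrp1 controls and 6.15 and 6.12 CPM in the Usp7 controls. The groups did not overlap, and the Ssrp1 controls differed from each other by more than the Usp7 controls did; the ratio of means was 29.4. All 9 were called lower. Zscan4c was at 13.7 and 55.98 against 1.20 and 0.84 CPM (log2 difference -5.17, SE 0.59, adjusted p = 0.00043), and Zscan4f at 13.9 and 42.5 against 1.14 and 1.26 CPM (-4.66, SE 0.49, adjusted p = 0.00032). Zscan4d was at 8.92 and 36.4 against 1.03 and 0.78 CPM (-4.72, adjusted p = 0.00085). The copies are near-identical and how reads with several matches were counted is not given in the sources used here, so the level of a single copy is uncertain.

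The upstream sequences show how close these copies are. The 250 bases before the annotated starts of Zscan4c (chr7:11005495-11005744, plus strand) and Zscan4f (chr7:11397665-11397914, plus strand), from RefSeq on GRCm38.p6, are printed because both genes carry the result. Capitals mark a match to a pattern close to the known Dux recognition sequence.
Zscan4c: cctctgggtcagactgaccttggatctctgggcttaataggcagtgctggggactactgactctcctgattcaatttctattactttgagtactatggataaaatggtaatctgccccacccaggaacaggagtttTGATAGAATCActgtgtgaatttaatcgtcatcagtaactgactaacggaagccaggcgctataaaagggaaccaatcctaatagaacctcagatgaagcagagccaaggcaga
Zscan4f: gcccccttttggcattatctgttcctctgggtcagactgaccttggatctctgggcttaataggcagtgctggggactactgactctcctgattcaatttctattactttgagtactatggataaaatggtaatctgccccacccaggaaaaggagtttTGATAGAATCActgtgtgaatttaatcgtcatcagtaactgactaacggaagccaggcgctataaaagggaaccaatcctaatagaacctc
The match reads TGATAGAATCA, and the pattern searched leaves its bases 5 and 6 free. It starts 114 bases before the Zscan4c start and 91 bases before the Zscan4f start. Searched on both strands, the pattern was present in the same window of 4 of 4 Zscan4 genes with an entry (Zscan4b, Zscan4c, Zscan4d and Zscan4f) and 0 of 4 Usp17l genes. It was present in 58 of all 32851 upstream windows (0.177%). Over 6 pairs of these 4 Zscan4 windows, 83.6% to 94.8% of the 250 bases aligned to an identical base. The shared match is thus part of a shared sequence. A shift between annotated starts, as between Zscan4c and Zscan4f, lowers this share with no change of sequence.

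Other families of the state were lower too. The 5 Usp17l genes, which encode deubiquitinases, summed to 21 and 35 CPM in the Ssrp1 controls and 0.654 and 0.78 CPM in the Usp7 controls, a ratio of means of 39.1, and all 5 were called lower. Usp17le was at 7.29 and 10.1 against 0 and 0.18 CPM (log2 difference -6.71, SE 0.70, adjusted p = 0.00032). The predicted gene Gm21761 was the most abundant of those called (54.5 and 89.5 against 1.14 and 0.84 CPM; -6.31, SE 0.37, adjusted p = 2.4e-05), followed among predicted genes by Gm4340 (28.9 and 28.8 against 0.381 and 0.18 CPM; -6.80, SE 0.45, adjusted p = 3.9e-05). For both genes the replicates of a group lay close together beside the gap between the groups.

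Tcstv3 had 32 and 26 counts in the Ssrp1 controls and none in the Usp7 controls, which is at least 20.3-fold lower when the Usp7 total is set to 3 counts. Gm2a, a lysosomal activator protein gene that is also expressed outside the state, was at 46.2 and 55.98 against 17.3 and 24.6 CPM (log2 difference -1.47, adjusted p = 0.0057). Eif1a, the translation initiation factor gene on that list, did not pass the test (147 and 204 against 204 and 216 CPM; adjusted p = 0.83). The upstream factor itself was near the limit of detection: Duxf3 had 8 and 9 against 1 and 2 counts, a ratio of 5.94 (95% interval 1.72 to 31.6, covering counting error only). Zfp352 had 2 and 14 against 0 and 1 counts, and neither gene had enough counts to be tested. In bulk RNA, fewer 2-cell-like cells and less RNA in each such cell cannot be told apart.

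The perturbed libraries give a scale for this difference. The summed Zscan4 level was 553 and 2110 CPM in the libraries labelled Ssrp1 knockout and 47.4 and 36.8 CPM in the Usp7 knockdown. The knockdown libraries were above their own controls and yet below both Ssrp1 controls. Over the whole 2-cell-like list the sums were 477 and 843 CPM (Ssrp1 controls), 238 and 259 CPM (Usp7 controls), 2070 and 5630 CPM (labelled Ssrp1 knockout) and 331 and 300 CPM (knockdown). The ratio of control means over the list was 2.65, with Eif1a alone at 204 and 216 CPM of the Usp7 control sums.

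**Figure D2:**
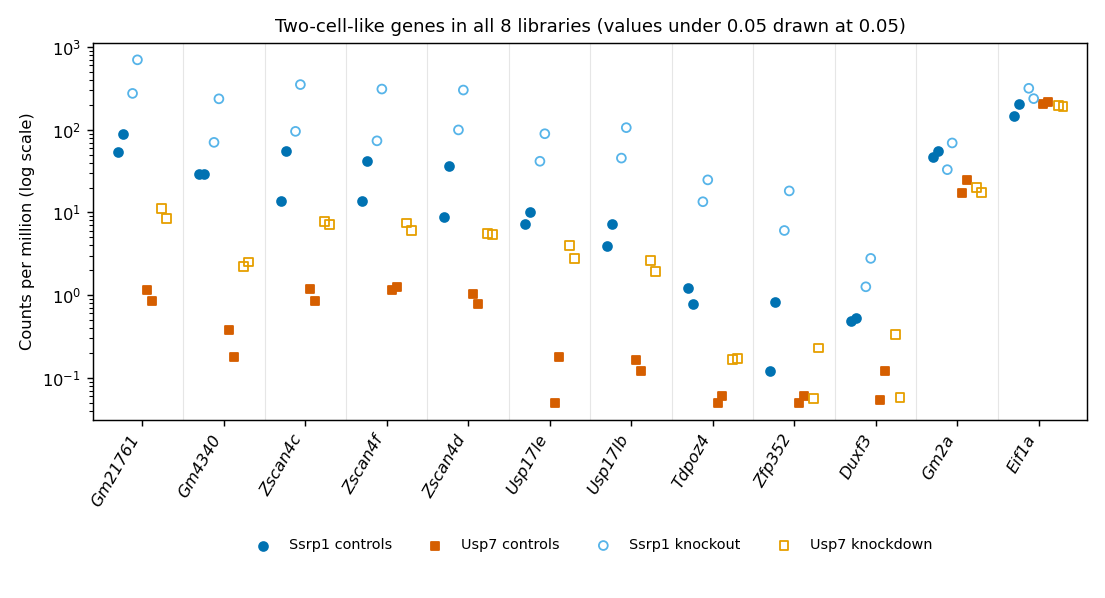
CPM (log axis) of 12 genes of the 2-cell-like list in the 8 libraries, with filled symbols for controls and open symbols for perturbed libraries; values under 0.05 are drawn at 0.05. The Zscan4, Usp17l and predicted genes lie lower in both Usp7 controls by a wide gap on the log axis, Gm2a by a smaller one, and the Eif1a points lie together.

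Most core pluripotency genes did not pass the test between the control groups, with exceptions on each side. Pou5f1 was at 1440 and 1196 against 1380 and 1046 CPM (log2 difference -0.30, SE 0.35, adjusted p = 0.62) and Esrrb, an orphan nuclear receptor gene, at 779 and 736 against 750 and 834 CPM (adjusted p = 0.82). Sox2 (322 and 394 against 509 and 520 CPM; 0.35, SE 0.27) and Zfp42 (981 and 734 against 726 and 642 CPM; -0.52, SE 0.33) did not pass the test, at adjusted p = 0.42 and 0.34. Of 15 core genes tested, 4 were higher (26.7%, against 5.39% of all genes tested) and 2 lower (13.3%, against 5.05%), with a median log2 difference of 0.25, and 9 were not called. The list had 3 calls without Usp7_Control 1 and 2 without Usp7_Control 2.

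Nanog, the homeobox factor that marks the more naive cells of a serum culture, was at 826 and 793 CPM in the Ssrp1 controls and 448 and 432 CPM in the Usp7 controls. Replicates were close and the groups did not overlap (log2 difference -1.06, SE 0.30, adjusted p = 0.044). The call was lost without any 1 of Ssrp1_Control 1, Usp7_Control 1 and Usp7_Control 2 (highest adjusted p = 0.34) and after GC and length correction (-0.73, adjusted p = 0.1). Dppa2, which binds promoters of developmental genes, was also lower, at 127 and 155 against 66.8 and 60.5 CPM (-1.31, SE 0.25, adjusted p = 0.008; 0.086 without Usp7_Control 2).

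Zfp281, a zinc finger regulator of the exit from naive pluripotency, was higher in the Usp7 controls, at 95.8 and 121 against 24.1 and 37.3 CPM (log2 difference 1.66, SE 0.25, adjusted p = 0.0027). Rif1, a telomere and replication timing factor gene, was at 245 and 380 against 49.4 and 108 CPM (1.83, SE 0.33, adjusted p = 0.0062), with 0.56 and an adjusted p of 0.14 after GC and length correction. Sall4, a zinc finger factor of the pluripotency network, was higher by less (0.93, adjusted p = 0.044), and was called in none of the 4 fits that left 1 library out (highest adjusted p = 0.27).

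Naive genes split in both directions: of 28 tested, 3 were higher (10.7%, against 5.39% of all genes tested) and 4 lower (14.3%, against 5.05%), with a median log2 difference of -0.08. The list fell to 3 calls without Ssrp1_Control 1 and 3 without Usp7_Control 2. Fbxo15, an F-box protein gene known as a Pou5f1 and Sox2 target, was at 319 and 293 against 124 and 118 CPM (-1.52, SE 0.27, adjusted p = 0.0062). Dppa3, also called Stella, which protects methylation in the early embryo, was at 13.3 and 6.77 against 2.02 and 1.08 CPM (-2.88, SE 0.52, adjusted p = 0.0066). Both were called in all 4 fits that left 1 library out, and in neither did the groups overlap.

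Tcl1, a co-activator of Akt, was at 240 and 185 against 106 and 103 CPM (-1.22, adjusted p = 0.02, but 0.16 without Ssrp1_Control 1 and 0.12 without Usp7_Control 2). Dppa5a was at 3671 and 2761 against 1491 and 1218 CPM (-1.44, adjusted p = 0.041). Its call was lost in 3 of the 4 fits that left 1 library out (highest adjusted p = 0.3) and after GC and length correction (-0.55, adjusted p = 0.29). Jam2 (103 and 133 against 259 and 266 CPM; 0.99, adjusted p = 0.029) was higher and was lost in all 4 such fits (highest adjusted p = 0.17), and so was the LIF receptor gene Lifr (0.99, adjusted p = 0.044) without Ssrp1_Control 1 (adjusted p = 0.3) or Usp7_Control 2.

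The Krüppel-like factor gene Klf4 (121 and 156 against 148 and 177 CPM; adjusted p = 0.91) and Klf2 (382 and 332 against 774 and 533 CPM; 0.70, SE 0.33, adjusted p = 0.19) did not pass. Tbx3 was at 107 and 108 against 223 and 190 CPM, where the groups did not overlap but the adjusted p was 0.084. Tfcp2l1 (adjusted p = 0.74) and Prdm14 (adjusted p = 0.23) were not called either.

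Of 22 formative and primed genes tested, none was higher and 2 were lower (9.09%, against 5.05% of all genes tested), Lefty1 and Cldn6, with a median of 0.17. The list had 5 calls without Ssrp1_Control 2 and 4 after GC and length correction. Lefty1, which encodes a secreted inhibitor of Nodal, was at 151 and 116 against 51.6 and 51.8 CPM (log2 difference -1.57, SE 0.28, adjusted p = 0.0059), and its neighbour Lefty2 at 127 and 197 against 101.2 and 123 CPM (-0.69, SE 0.25, adjusted p = 0.1). Lefty1 had an adjusted p of 0.072 in the joint fit of all 8 libraries. It was at 9.76 and 2.31 CPM in the libraries labelled Ssrp1 knockout and at 36.3 and 44.2 CPM in the knockdown, below its controls in both experiments. Otx2, a factor of the primed state, was at 12.4 and 13.2 against 25.1 and 24.2 CPM. The groups did not overlap, and the adjusted p was 0.097, or 0.031 after GC and length correction. The methyltransferase gene Dnmt3b (109 and 145 against 97.0 and 104 CPM; adjusted p = 0.2) did not pass, and Fgf5 had 0 and 1 against 4 and 6 counts, too few to test. Of genes of other lineages, 23 primitive endoderm genes had a median difference of 0.31 and 12 mesoderm genes of 0.06, with none called. Of 18 fibroblast and feeder genes 2 were higher (11.1%, against 5.39% of all genes tested) and 2 lower (11.1%, against 5.05%). Of 18 trophoblast genes 1 was higher (5.56%, against 5.39%) and 3 lower (16.7%, against 5.05%), with a median of -0.30. The trophoblast list had 1 call in the joint fit. Of 13 neural and ectoderm genes 1 was lower (7.69%, against 5.05%) and none higher. The part of such cells in the differences was not tested.

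**Figure D3:**
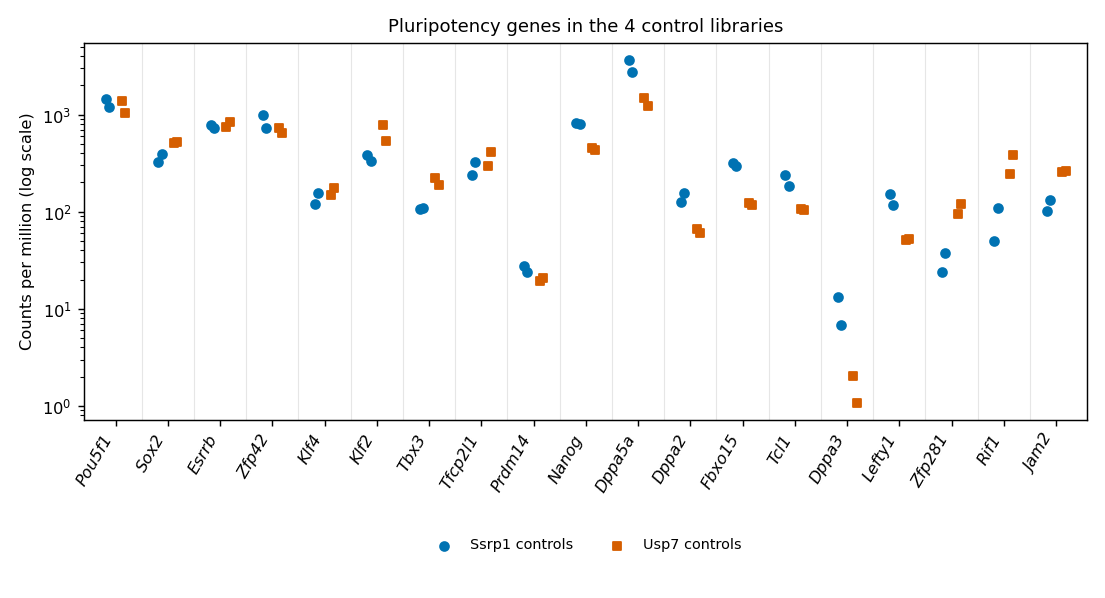
CPM (log axis) of 19 pluripotency genes in the 2 Ssrp1 controls (blue circles) and 2 Usp7 controls (orange squares). Pou5f1 and Esrrb overlap between groups, Nanog, Dppa5a, Dppa2, Fbxo15, Tcl1, Dppa3 and Lefty1 sit lower in both Usp7 controls, and Zfp281, Rif1 and Jam2 sit higher.

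Zinc finger genes were often higher in the Usp7 controls. This set, a window on each of chromosomes 2 and 4 and the genes named from them were chosen after values had been seen. Of 372 zinc finger genes tested, 108 were higher (29%) and 3 lower, with a median log2 difference of 0.66, against 5.39% higher over all genes. After GC and length correction 78 were higher and 6 lower, with a median of 0.42. Of the 108, 6 lay in the chromosome 2 window and 16 in the chromosome 4 window, where 7 and 19 were tested. Both windows hold clusters of KRAB zinc finger genes, many of them under predicted-gene symbols.

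On chromosome 2, 49 of 84 genes of the window could be tested (175010241 to 177957297, GRCm38), of which 42 were higher and 1, Gm14414, was lower, with a median of 3.69 (28 higher and none lower after correction). Many of these genes had few counts in the Ssrp1 controls and passed the filter through the Usp7 controls, so these counts and this median describe the members that passed. This holds for some genes on chromosome 4 as well. All 84 genes of the chromosome 2 window, tested or not, summed to 34.4 and 43.3 CPM in the Ssrp1 controls and 198 and 325 CPM in the Usp7 controls. The groups did not overlap. Zfp970 (chromosome 2, 177464733 to 177478129) was at 0.181 and 0.534 against 5.94 and 8.64 CPM (log2 difference 4.15, SE 0.54, adjusted p = 0.0011). Gm14414 was at 3.62 and 1.60 against 0.436 and 0.42 CPM (-2.80, adjusted p = 0.02, but 0.26 without Ssrp1_Control 1 and 0.056 after correction).

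On chromosome 4, 57 of 104 genes of the window were tested (145213463 to 147947314), of which 28 were higher and 3 lower, with a median of 1.36 (23 higher and 2 lower after correction, and 16 calls in the joint fit of all 8 libraries). The sums over all 104 genes, tested or not, were 332 and 408 CPM against 928 and 1150 CPM. Zfp990 (chromosome 4, 145510759 to 145539188) was at 4.22 and 5.82 CPM in the Ssrp1 controls and 92.0 and 103 CPM in the Usp7 controls (4.11, SE 0.28, adjusted p = 3.9e-05). Rex2, a zinc finger gene distinct from Zfp42 (also known as Rex1), was at 2.83 and 5.11 against 53.8 and 71.3 CPM (3.81, SE 0.31, adjusted p = 8.7e-05). Zfp979 was at 7.23 and 11.8 against 104 and 107 CPM (3.32, SE 0.28, adjusted p = 9.7e-05). Both Usp7 controls lay far above both Ssrp1 controls for each of them.

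Zfp980 (3.50), Zfp987 (3.53) and Zfp984 (3.46) on chromosome 4 were higher by a like log2 difference. With Zfp990, Rex2 and Zfp979, they were called in all 4 fits that left 1 library out. GC and length correction lowered Zfp990 to 2.77, Rex2 to 2.40, Zfp987 to 2.28, Zfp984 to 2.14 and Zfp980 to 2.12, all still called. Miip, a gene of another family at the edge of the chromosome 4 window, went the other way, at 27.6 and 18.1 against 6.59 and 4.26 CPM (-2.26, adjusted p = 0.0053). Gm16211 was also lower (-0.94, adjusted p = 0.044), but not without any 1 of Ssrp1_Control 1, Usp7_Control 1 and Usp7_Control 2 (highest adjusted p = 0.31). The median GC content of the window genes was 39.5% on chromosome 2 and 40.9% on chromosome 4, against 50.5% over all genes tested, and 26.9% of the tenth of genes with the lowest GC content were higher in the Usp7 controls. Because the family members share sequence, counts may be split between copies.

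The chromosome 4 genes also resemble each other upstream. Windows of 250 bases before the starts of Rex2 (chr4:147021600-147021849, plus strand) and Zfp979 (chr4:147642509-147642758, minus strand), from RefSeq on GRCm38.p6, are shown as the most alike pair (96.4% identical). Capitals mark TGGGAAGCTAATTAA, the longest run shared by the windows of Rex2, Zfp979, Zfp980, Zfp984 and Zfp987.
Rex2: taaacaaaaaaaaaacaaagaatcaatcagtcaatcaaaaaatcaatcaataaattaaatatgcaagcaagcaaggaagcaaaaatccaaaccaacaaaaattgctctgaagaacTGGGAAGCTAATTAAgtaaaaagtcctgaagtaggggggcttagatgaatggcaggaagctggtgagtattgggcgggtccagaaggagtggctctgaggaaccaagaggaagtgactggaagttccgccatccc
Zfp979: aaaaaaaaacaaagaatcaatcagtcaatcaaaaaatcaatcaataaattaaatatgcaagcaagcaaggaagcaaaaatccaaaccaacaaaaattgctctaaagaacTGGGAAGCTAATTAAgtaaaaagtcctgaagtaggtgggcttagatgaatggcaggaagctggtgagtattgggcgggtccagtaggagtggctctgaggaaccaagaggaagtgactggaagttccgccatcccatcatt
The run was found, on either strand, in 12 of all 32851 upstream windows (0.0365%). These included 12 of the 14 genes with an entry that were higher in the chromosome 4 window and 0 of the 28 tested genes with an entry in the chromosome 2 window. It was chosen from the called genes, so this is a description of related copies. Identity over the 10 pairs of these 5 windows ranged from 73.6% to 96.4%. It was taken as a share of all 250 bases, so a shift between annotated starts lowers it too.

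The perturbed libraries of the Ssrp1 experiment split on chromosome 4. Zfp990 was at 193 and 6.80 CPM in the libraries labelled Ssrp1 knockout, so that 1 of them stood above and the other far below the Usp7 libraries, and at 92.6 and 109 CPM in the Usp7 knockdown. Rex2 showed the same split (151 and 7.39 CPM). For both genes the library labelled Ssrp1 knockout 2 was thus near the level of the Ssrp1 controls. The one labelled 1, whose Ssrp1 level was that of a control, was not. On chromosome 2 the window summed to 244 and 120 CPM in the libraries labelled Ssrp1 knockout, both above both Ssrp1 controls (34.4 and 43.3 CPM). It summed to 260 and 276 CPM in the Usp7 knockdown. Between the knockdown and the libraries labelled knockout the median difference was -0.03 over the chromosome 4 window and 0.46 over the chromosome 2 window.

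Several imprinted genes were higher in the Usp7 controls and a few were lower. Of 32 tested, 9 were higher (28.1%, against 5.39% of all genes tested), 3 were lower (9.38%, against 5.05%) and 20 were not called, with a median of 0.52 (12 and 4 after GC and length correction, and 10 to 14 calls with any 1 library left out). Of the maternally expressed noncoding RNAs of the Dlk1-Meg3 domain on chromosome 12, Meg3 was at 101.5 and 121 CPM in the Ssrp1 controls and 361 and 598 CPM in the Usp7 controls (log2 difference 1.91, SE 0.29, adjusted p = 0.0025). Mirg was at 13.7 and 11.0 against 76.5 and 78.8 CPM (2.45, SE 0.28, adjusted p = 0.00046), and Rian was at 98.4 and 146 against 397 and 566 CPM (1.81, adjusted p = 0.003, or 0.11 after correction). The paternally expressed Dlk1 of the same domain was higher as well (1.51 and 1.96 against 8.06 and 7.68 CPM; 2.02, adjusted p = 0.01). The groups did not overlap for any of these genes, as for 57.1% of all genes tested.

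Mest, a paternally expressed hydrolase gene, was at 34.5 and 43.0 against 171 and 199 CPM (2.08, SE 0.24, adjusted p = 0.00053), and the zinc finger regulator Plagl1 at 0.482 and 1.07 against 9.04 and 17.3 CPM (3.89, SE 0.48, adjusted p = 0.00076). Peg10, a gene derived from a retrotransposon, was higher (88.1 and 183 against 314 and 462 CPM; 1.36, adjusted p = 0.021), as was Peg3 (1.34, adjusted p = 0.045). Both were lost without Ssrp1_Control 1 (adjusted p = 0.14 for each) and without Usp7_Control 2 (adjusted p = 0.058 for Peg10 and 0.26 for Peg3).

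The 3 imprinted genes that were lower are known growth suppressors. Grb10, an adaptor that dampens insulin signalling, was at 86.6 and 105 against 9.37 and 13.4 CPM (-3.25, SE 0.27, adjusted p = 8.7e-05). Phlda2, a growth suppressor of the placenta, was at 92.0 and 76.1 against 23.6 and 19.4 CPM (-2.15, SE 0.29, adjusted p = 0.0013). The cyclin-dependent kinase inhibitor gene Cdkn1c was at 18.3 and 35.7 against 9.15 and 11.0 CPM (-1.57, adjusted p = 0.011; 0.073 in the joint fit). All 3 were called in each of the 4 fits that left 1 library out. Meg3, Mirg and Mest were also higher in the Usp7 knockdown than in the libraries labelled Ssrp1 knockout (log2 differences 3.06, 3.62 and 3.04; adjusted p = 0.0099 each).

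**Figure D4:**
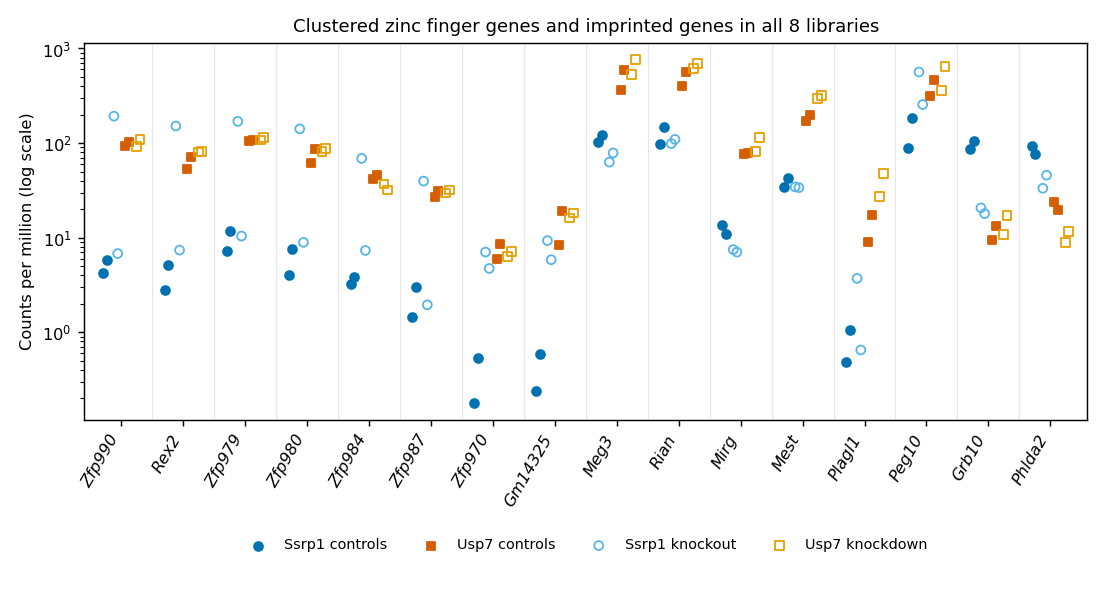
CPM (log axis) of 8 clustered zinc finger genes and 8 imprinted genes in the 8 libraries, with filled symbols for controls and open symbols for perturbed libraries. The Usp7 controls lie above the Ssrp1 controls for all but Grb10 and Phlda2, and for the chromosome 4 genes 1 library labelled Ssrp1 knockout lies with the Ssrp1 controls and 1 does not.

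The make-up of the RNA differed as well. Mitochondrially encoded transcripts took 0.732% and 0.776% of counts in the Ssrp1 controls and 2.23% and 1.67% in the Usp7 controls, and ribosomal protein genes 16.2% and 12.3% against 9.49% and 7.58%. Of the 13 mitochondrial genes, 5 were higher (38.5%, against 5.39% of all genes tested) and 1 lower (7.69%, against 5.05%), with a median log2 difference of 0.88. Among the cytochrome c oxidase subunits of the respiratory chain, mt-Co3 was at 244 and 238 against 1722 and 1326 CPM (2.49, SE 0.34, adjusted p = 0.0015) and mt-Co2 at 366 and 386 against 2248 and 1663 CPM (2.22, SE 0.35, adjusted p = 0.0035). The cytochrome b gene mt-Cytb was higher too (2.22, adjusted p = 0.0067). The complex I gene mt-Nd6, which is read from the other strand than the rest, was lower, at 421 and 332 against 168 and 93.3 CPM (-1.70, adjusted p = 0.015, but 0.089 without Usp7_Control 2). After GC and length correction 3 of the 13 were higher and 1 lower, with a median of 0.01. In the perturbed libraries the sign turned, with a median of -1.42 for the Usp7 knockdown minus the libraries labelled Ssrp1 knockout. Mitochondrial transcripts took 2.44% and 2.03% of counts in the knockdown and 7.31% and 2.81% in the libraries labelled knockout.

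Nuclear genes of the respiratory chain leaned the other way, with 9 of 64 lower (14.1%, against 5.05% of all genes tested), 1 higher and a median of -0.71. Ndufb4, a subunit of complex I, was at 149 and 105 against 55.8 and 42.2 CPM (-1.56, SE 0.31, adjusted p = 0.011). Uqcrb, a subunit of complex III, was the one that was higher, at 12.1 and 24.3 against 78.5 and 60.3 CPM (1.80, SE 0.32, adjusted p = 0.0059). Of 83 ribosomal protein genes 9 were lower (10.8%) and 1 higher, with a median of -0.92. Rpl23a (2053 and 1497 against 859 and 753 CPM; -1.33, adjusted p = 0.04) and Rps18 (2220 and 1521 against 912 and 699 CPM; -1.41, adjusted p = 0.041) were among those lower, with an adjusted p of 0.28 and 0.29 without Usp7_Control 2 and of 0.26 and 0.25 without Ssrp1_Control 1. Rpl23a also had 0.058 without Usp7_Control 1 and 0.28 after GC and length correction. The counts of both lists moved with single libraries and with the test: the 10 respiratory chain calls became 35 without Ssrp1_Control 2, 23 without Usp7_Control 1, 3 without Ssrp1_Control 1 and 2 without Usp7_Control 2. The 10 ribosomal protein calls became 36 without Ssrp1_Control 2, 3 without Ssrp1_Control 1 and 1 without Usp7_Control 2, and 24 in the joint fit. DESeq2 called 47 ribosomal protein and 19 respiratory chain genes. After GC and length correction 6 respiratory chain and 5 ribosomal protein genes were called.

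Of 53 histone genes tested 15 were lower (28.3%, against 5.05% of all genes tested) and none higher, with a median of -1.09. This became 4 calls without Ssrp1_Control 1 and 1 without Usp7_Control 2, and 5 were lower after GC and length correction and 8 were called in the joint fit. Among noncoding RNAs, 3 transcripts named after their values were seen were far lower. The libraries came from a poly(A) mRNA kit. How far carry-over of RNA without a poly(A) tail sets these values and those of the histone genes was not tested. Rn7sk, the RNA that holds the elongation factor P-TEFb inactive, was at 23.8 and 29.6 against 0.762 and 1.08 CPM (-5.02, SE 0.36, adjusted p = 6e-05). The ribosomal RNA gene CT010467.1 was at 2926 and 3522 against 300 and 325 CPM (-3.54, SE 0.37, adjusted p = 0.00032). Gm23935, annotated as a microRNA gene, was at 1825 and 1774 against 233 and 275 CPM (-3.01, adjusted p = 0.0004). Rn7sk, CT010467.1 and Gm23935 were also lower in the Usp7 knockdown than in the libraries labelled Ssrp1 knockout (log2 differences -2.55, -2.97 and -2.64; adjusted p = 0.036, 0.014 and 0.0099). Processed pseudogenes, a set chosen after values were seen, had 187 of 674 lower (27.7%) and 31 higher (4.6%), with a median of -0.81. That set fell from 218 calls to 123 without Ssrp1_Control 1 and to 138 without Usp7_Control 2.

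Several of these sets hold short transcripts. The median exon length was 1778 bases for the respiratory chain, 1770 for ribosomal proteins, 836 for histones and 681.5 for processed pseudogenes, against 3928 over all genes tested. Their median GC content was 50.9%, 51.8%, 55.1% and 50.8%, against 50.5%, and that of the mitochondrially encoded genes was 37.1%. The control difference varied with both length and GC content. Over the tenth of tested genes with the shortest exon length the median log2 difference was -0.54, with 18.1% lower. Over the tenth with the longest it was 0.35, with 9.66% higher and 1.16% lower. Over the tenth of lowest GC content (29.6% to 42.3%) it was 0.64, with 26.9% higher and 2.51% lower, and over the tenth of highest GC content it was 0.17. Replicates of 1 group differed in the same way: replicate 2 minus replicate 1 had a median of -0.20 for the shortest and 0.56 for the longest genes in the Ssrp1 controls, and -0.15 and 0.55 in the Usp7 controls. For genes of lowest GC content it was 0.61 and 0.34. With smooth terms for GC content and length in each library, 776 of 15517 genes were higher (5%) and 896 lower (5.77%), and 522 of the 837 higher and 553 of the 784 lower genes were called in both fits. The part of length and GC content in any single difference was not tested beyond this correction.

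**Figure D5:**
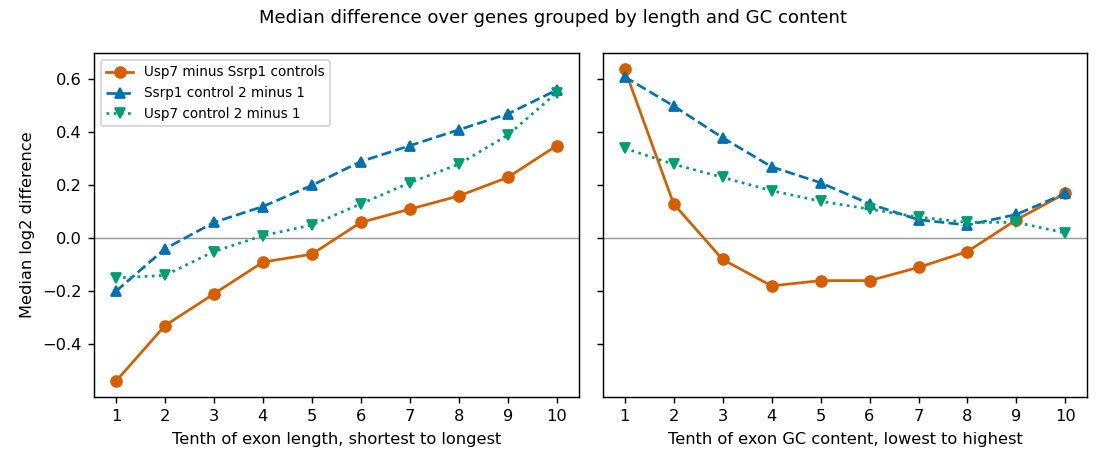
Median log2 difference (vertical axis) over 10 equal groups of the tested genes ordered by exon length (left) and exon GC content (right), for Usp7 minus Ssrp1 controls and for replicate 2 minus replicate 1 within each control group. All 3 lines rise with length, from -0.54 to 0.35 for the groups, and the tenth of lowest GC content is the highest point of the group line at 0.64.

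Genes that respond to growth signals and stress differed in small numbers. Of 31 immediate early genes tested, 4 were higher (12.9%, against 5.39% of all genes tested) and 1 lower (3.23%, against 5.05%), with a median of 0.41. Egr1, a zinc finger factor induced by MAP kinase signalling, was at 18.3 and 18.6 against 109 and 96.8 CPM (2.30, SE 0.26, adjusted p = 0.00043; 0.084 in a joint fit of all 8 libraries), and the matricellular gene Ccn2 at 5.49 and 7.54 against 25.4 and 23.9 CPM (1.76, SE 0.30, adjusted p = 0.0049). Myc was higher (32.9 and 38.6 against 105 and 65.7 CPM; 1.11, adjusted p = 0.038), but not without Usp7_Control 1 (adjusted p = 0.35). The list's 5 calls became 3 without Usp7_Control 1, 3 without Usp7_Control 2, 8 after GC and length correction and 1 in the joint fit.

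Of 35 genes of the integrated stress response and amino acid supply, 2 were higher (5.71%) and 4 lower (11.4%), against 5.39% and 5.05% of all genes tested, with a median of 0.18. The 3 lower members with the largest difference encode enzymes of serine synthesis: Psat1 was at 655 and 604 against 264 and 297 CPM (-1.36, SE 0.29, adjusted p = 0.014), Phgdh at 410 and 346 against 177 and 177 CPM (-1.28, SE 0.28, adjusted p = 0.017) and Psph at 116 and 73.6 against 46.1 and 44.2 CPM (-1.27, SE 0.31, adjusted p = 0.025). The groups did not overlap for any of the 3. Hspa5, the main chaperone of the endoplasmic reticulum, was higher (244 and 251 against 695 and 593 CPM; 1.21, SE 0.29, adjusted p = 0.024). Psat1 was called only without Ssrp1_Control 2 among the 4 fits that left 1 library out (highest adjusted p = 0.091). Phgdh and Psph were lost without Ssrp1_Control 1 (0.099 and 0.26) and Usp7_Control 2 (0.12 and 0.078), and Hspa5 without Ssrp1_Control 2 (0.078) and Usp7_Control 1 (0.13). Without Ssrp1_Control 1 or Usp7_Control 2 the list had 2 calls, and without Ssrp1_Control 2 it had 11. Of 23 heat shock and proteostasis genes 1 was higher (4.35%, below the 5.39% over all genes tested) and none lower. It was the inducible Hspa1b (2.89 and 7.36 against 20.4 and 22.5 CPM; 1.93, adjusted p = 0.0094; 0.078 in the joint fit). There were 3 calls without Ssrp1_Control 2, 2 after GC and length correction and 5 with DESeq2.

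Cholesterol and fatty acid synthesis had 1 higher (3.12%, against 5.39% of all genes tested) and 4 lower (12.5%, against 5.05%) of 32 tested, with a median of -0.41. Msmo1, a sterol demethylation enzyme, was at 126 and 176 against 36.5 and 57.8 CPM (-1.86, SE 0.27, adjusted p = 0.0018), and Fdft1, squalene synthase, at 181 and 161 against 63.2 and 67.6 CPM (-1.58, SE 0.26, adjusted p = 0.0042). Nsdhl (-1.15, adjusted p = 0.017) and Cyp51 (-1.03, adjusted p = 0.041) were lower by less, and both were lost without Usp7_Control 1 (adjusted p = 0.078 and 0.22), when 3 members were called. Nsdhl was also lost without Usp7_Control 2 (0.073) and Cyp51 without Ssrp1_Control 2 (0.11), and 8 members were lower after GC and length correction and 9 called with DESeq2. Fasn, which makes palmitate, was higher (243 and 347 against 608.5 and 781 CPM; 1.07, adjusted p = 0.036) and was called in none of the 4 fits that left 1 library out (highest adjusted p = 0.24) and not after GC and length correction (0.13). Abca1, a cholesterol exporter gene outside that list, was among the largest differences, at 3.25 and 5.52 against 40.4 and 101.1 CPM (3.82, SE 0.40, adjusted p = 0.00035).

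Of 36 glycolysis and hypoxia genes 5 were lower (13.9%, against 5.05% of all genes tested) and none higher, with a median of -0.44. Ldhb, a lactate dehydrogenase subunit, was at 505 and 448 against 145 and 211 CPM (-1.63, SE 0.29, adjusted p = 0.0064; 0.12 in the joint fit). Bnip3, a hypoxia-induced mitophagy receptor gene, was at 139 and 224 against 69 and 118 CPM (-1.13, adjusted p = 0.03, but 0.18 without Usp7_Control 1 and 0.068 without Ssrp1_Control 2). The list had 1 call without Usp7_Control 1, 3 without Usp7_Control 2, 3 after GC and length correction, 9 with DESeq2 and none in the joint fit.

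The p53 pathway, which Usp7 acts on through Mdm2 and p53, had 5 higher (11.4%, against 5.39% of all genes tested) and none lower of 44 tested, with a median of -0.03. Its main targets did not pass the test between the controls: Cdkn1a was at 88.2 and 75.0 against 54.9 and 62.7 CPM (-0.67, SE 0.25, adjusted p = 0.11) and Mdm2 at 117 and 129 against 123 and 123 CPM (-0.17, SE 0.24, adjusted p = 0.68). Trp53inp1 (34.1 and 55.2 against 119 and 220 CPM; 1.75, SE 0.30, adjusted p = 0.0051), the death receptor gene Eda2r (11.8 and 19.6 against 36.8 and 66.5 CPM; 1.54, adjusted p = 0.011) and Cd80 (0.663 and 1.43 against 6.59 and 6.30 CPM; 2.47, adjusted p = 0.0078) were higher. Trp53inp1 had an adjusted p of 0.062 after GC and length correction, and Eda2r had 0.069 without Usp7_Control 2. Without Ssrp1_Control 1 there were 3 calls, without Usp7_Control 2 there were 2, and after GC and length correction 3.

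Among chromatin regulators, 4 of 32 polycomb genes were higher (12.5%, against 5.39% of all genes tested) and none lower, with a median of 0.39. Kdm2b, which recruits a polycomb complex to CpG islands, was at 46.2 and 64.2 against 191 and 186 CPM (1.62, SE 0.25, adjusted p = 0.003), and Bmi1 at 1.33 and 2.08 against 8.44 and 7.44 CPM (2.07, SE 0.41, adjusted p = 0.01). Suz12 (0.96, adjusted p = 0.036) and Bcor (1.02, adjusted p = 0.027) were higher by less and were called only in the fit without Ssrp1_Control 2 among the 4 that left 1 library out (highest adjusted p = 0.28 and 0.13), and Suz12 had 0.41 after GC and length correction. The list had 2 calls without Ssrp1_Control 1 or Usp7_Control 2, 8 without Ssrp1_Control 2, 7 in the joint fit and 7 with DESeq2. Of 32 genes of retroelement silencing and DNA methylation, 3 were higher (9.38%, against 5.39% of all genes tested) and 1 lower (3.12%, against 5.05%), with a median of 0.24. Hells, a remodeller needed for DNA methylation, was at 68.5 and 110 against 281 and 340 CPM (1.64, SE 0.27, adjusted p = 0.0041), and had an adjusted p of 0.063 after GC and length correction. Atrx (1.55, adjusted p = 0.0094) had 0.22 after it, and that list had 2 calls after it. It also had 2 calls without Ssrp1_Control 1 or Usp7_Control 2.

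Of 37 germline genes, 3 were higher (8.11%, against 5.39% of all genes tested) and 4 lower (10.8%, against 5.05%), with a median of -0.38. Sohlh2, a germ cell transcription factor gene, was at 64.8 and 59.4 against 14.4 and 15.2 CPM (-2.26, SE 0.27, adjusted p = 0.00055), and Stra8, which starts meiosis, at 23.2 and 20.9 against 4.41 and 5.82 CPM (-2.30, SE 0.32, adjusted p = 0.0015). Replicates of each were close and the groups did not overlap. Among those higher were Meioc (1.47, adjusted p = 0.042) and Hormad1 (1.40, adjusted p = 0.038). Neither was called after GC and length correction (0.71 and 0.24, adjusted p = 0.18 and 0.7). The list had 4 calls without Ssrp1_Control 1 or Usp7_Control 2. Cell cycle lists held few calls: 1 higher (2.94%) and 3 lower (8.82%) of 34 G2/M genes (median -0.17) and 2 higher (4.35%) of 46 replication and G1/S genes (median -0.17). Pttg1, securin, was at 93.2 and 64.3 against 26.0 and 26.9 CPM (-1.78, SE 0.30, adjusted p = 0.0046), and Ccne2, cyclin E2, at 2.95 and 3.15 against 14.1 and 17.2 CPM (2.17, SE 0.34, adjusted p = 0.003; 0.066 after GC and length correction). The G2/M list had 2 calls without Ssrp1_Control 1 and 1 without Usp7_Control 2, and the G1/S list 5 without Ssrp1_Control 2 and 4 after GC and length correction.

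Single genes outside these groups reached similar sizes. Vax2, a homeobox gene of the developing eye, was at 0.904 and 0.415 against 20.6 and 14.9 CPM (4.56, SE 0.49, adjusted p = 0.00036). Dppa5b, annotated as an unprocessed pseudogene, was lower, at 9.04 and 3.32 against 0.327 and 0.18 CPM (-4.78, SE 0.71, adjusted p = 0.0024). It had 6 and 3 counts in the Usp7 controls, and whether its counts hold reads of a related gene was not tested. The long noncoding RNAs Tug1 (10.6 and 19.3 against 99.7 and 136 CPM; 2.82, SE 0.29, adjusted p = 0.00032) and Snhg14 (3.56 and 4.99 against 32.7 and 37.6 CPM; 2.87, SE 0.30, adjusted p = 0.00032) were higher, as was Myh9, non-muscle myosin heavy chain (68.1 and 106 against 245 and 345 CPM; 1.59, SE 0.27, adjusted p = 0.0049; 0.067 in the joint fit). For these genes the groups did not overlap, and each was called in all 4 fits that left 1 library out. Each was also called after GC and length correction, where Tug1 was at 2.00 and Snhg14 at 1.34 (adjusted p = 0.00031 and 0.021).

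The same contrast between experiments was read in the perturbed libraries, which share no library with the controls but also carry the perturbations. Of 16333 genes tested between the Usp7 knockdown and the libraries labelled Ssrp1 knockout, 2588 (15.8%) were called, 1183 higher (7.24%) and 1405 lower (8.6%). Of genes lower in the Usp7 controls and tested there, 726 of 763 (95.2%) had the same sign in the perturbed libraries, 407 of them called and 3 called with the opposite sign. Of genes higher, 579 of 828 (69.9%) had the same sign, 174 of them called and 21 called with the opposite sign. Over all 15161 genes tested in both, 69% had the same sign. Psat1 (-1.65, adjusted p = 0.011), Stra8 (-3.84, adjusted p = 0.0099) and Phlda2 (-2.07, adjusted p = 0.013) were lower in both comparisons, while Grb10 was at -0.60 (adjusted p = 0.23) in the perturbed libraries. Lefty1 had the opposite sign there (2.56, adjusted p = 0.048). The number called in the perturbed libraries moved from 2588 to 211 without Usp7_KD 2, to 417 without Usp7_KD 1, to 7262 without Ssrp1_KO 1 and to 7182 without Ssrp1_KO 2.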

How the data were processed

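Gene-level read counts were used as the authors deposited them, with each experiment in a table of its own. The submitters' processing notes name cutadapt, HISAT2, featureCounts and the mm10 genome. Not given in the sources used here are tool versions, the annotation, whether strand was used and how reads with several matches were treated. Per the labels' protocols, libraries came from a poly(A) mRNA kit with random primers, 11 PCR cycles and a 300 bp insert. The tables were joined by Ensembl identifier over 54232 genes. In each library 92 spike-in rows held 0 counts and were left out. Symbols, positions, exon lengths and GC content came from GENCODE M21 (GRCm38), with 67 identifiers unmatched, and upstream sequences from RefSeq.

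The control groups were compared with edgeR 4.0.16 in R 4.3.3 (filterByExpr, TMM scaling, quasi-likelihood test, Benjamini-Hochberg adjustment over all genes tested), in a fit of the 4 control libraries alone. The threshold for a call was an adjusted p under 0.05. The perturbed libraries were fitted in the same way. CPM was taken over all gene counts of a library. Counts of 0 were given a floor of 3 counts, and ratios of low counts have 95% exact intervals for counting error only, since PCR copies were not removed by molecular identifiers. The alternatives were DESeq2 1.42.0, limma 3.58.1 (voom), other scalings and filters, a correction for GC content and exon length with smooth terms (mgcv 1.9.3), a joint fit of all 8 libraries, a replicate block and leaving out each library. The edgeR step was tested on simulated data with 200 changed genes.

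The members, gene lists and tests were chosen with earlier results of these data known. Genes were named by rule: the 20 of highest TPM, per direction the 10 called genes of largest difference (mean CPM of at least 5, libraries not overlapping, no predicted-gene symbol) and the 10 of highest CPM with a fold over 2, a fixed set of pluripotency, target and p53 genes, the 2-cell-like genes of highest CPM with Zscan4c, Zscan4d, Zfp352 and Duxf3, and up to 3 called members per direction of each list. Not all genes the rule selects are printed. 1 core pluripotency gene is not reported here. The zinc finger, window, pseudogene and family sets, and Miip, Gm16211, Gm14414, Gm23935, Rn7sk and CT010467.1, were chosen after their values were seen.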

Additional observations from a re-analysis of the deposited data

How the results depend on the processing

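The 1621 genes called became 2678 with no filter on low counts and 480 at an adjusted p under 0.01, and ranged from 874 to 2652 with 1 library left out. The 188 list members called became 326 with no filter and ranged from 110 to 292 with 1 library left out. The perturbed comparison, with 2588 calls, ranged from 211 to 7262. Of the 20 highest genes, 8 were kept by a ranking with no length. Of the 113 named genes called, 64 were called in all 4 fits that left a library out, 87 after GC and length correction and 87 in the joint fit. The sign turned, at values of 0.09 for Ptma, -0.27 for Eif1a, -0.46 for Fam208a and -0.49 for Ddx3y after that correction and 0.07 for Esrrb without Ssrp1_Control 1, where leaving out a library gave -0.28 to 0.07. The cause of these changes was not tested. Another scaling moved the named genes by a median of -0.01.

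With the replicate number as a block, 5983 genes and 608 list members were called. The labels do not say that equal numbers were paired. Across genes, the differences between replicates 1 and 2 of the 2 groups correlated at 0.47. With 2 pairs and no label on the point, whether equal numbers mark a pairing is not known. With 2 libraries a group, the depth limits genes of a few counts, such as Duxf3 and Zfp352.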

Other observations

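E14 is a male line, and its Y-linked genes differed in level between the control groups. Kdm5d, a histone demethylase gene, had 23 and 19 counts in the Ssrp1 controls, none in the Usp7 controls or the knockdown, and 16 and 3 in the libraries labelled Ssrp1 knockout. It was at least 14.7-fold lower in the Usp7 controls when their total is set to 3 counts (edgeR adjusted p = 0.0045). The 4 libraries without a count all come from one of the 2 deposited tables, and whether the tables were counted alike for this gene was not tested. Eif2s3y, a translation initiation factor gene, was at 14.0 and 24.99 against 56.6 and 61.2 CPM (log2 difference 1.45, adjusted p = 0.0084, and 0.18 with an adjusted p of 0.64 after GC and length correction). Uty was at 4.34 and 8.96 against 16.7 and 28.2 CPM (1.59, adjusted p = 0.018, and 0.03 after correction), and its call was lost without Usp7_Control 2 (adjusted p = 0.079). Ddx3y, an RNA helicase gene, was at 13.2 and 25.8 against 38.6 and 57.9 CPM (1.15, adjusted p = 0.034, and -0.49 after correction), and its call was lost without Ssrp1_Control 1 (adjusted p = 0.19) or Usp7_Control 2.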
